A study of Rattus norvegicus with 49 samples.

Results

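The genes described here are heat shock proteins and co-chaperones measured in the CA1 field of the rat hippocampus across adult life: the small heat shock proteins Hspb1 and Hspb8, the J-domain co-chaperones Dnaja1 and Dnajb1, the Hsp70-class proteins Hspa8, Hspa5 and Hspa4, the Hsp90 gene Hsp90ab1 and the mitochondrial chaperonin gene Hspd1. They were chosen by name, with earlier results of these data known. Every probe set that the platform annotation gives to one of these 9 symbols was taken on its own. Of the 15923 probe sets on the array, 12 belong to 8 of these genes alone. A further probe set, 1398240_at, is annotated to both Hspa8 and Haus8l2, so Hspa8 has no probe set of its own and is reported through that shared one. All 12 passed the filter on low signals, as did 9541 of the probe sets with a single gene symbol, which cover 8094 genes and were tested with them.

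Total RNA came from CA1 of the left hippocampus of 49 Fisher 344 rats, with 1 rat per Affymetrix RAE 230A array. The rats were 3, 6, 9 and 12 months old (9 animals at each age) or 23 months old (13 animals). The labels name no treatment or genotype, every rat had been trained and tested in a water maze in the days before the tissue was taken, and 2 further aged rats had been removed for poor health. The design text once calls the oldest group 25 months old, and the labels' age of 23 months is used here. The question put to the data is how these chaperone messages change between young, middle-aged and aged animals. Values are MAS5 signals on a linear scale, a background-corrected brightness that the authors scaled to a common mean per array, and differences are in log2 signal.

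Chaperones bind proteins that are not yet folded or have come unfolded. Small heat shock proteins hold such clients without using ATP, J-domain proteins deliver them to Hsp70 and switch on its ATPase, nucleotide exchange factors such as the Hsp110 proteins release them, and Hsp90 and the chaperonins complete the folding of selected clients. Under protein stress the factor Hsf1 binds heat shock elements, inverted repeats of GAA and TTC, in the promoters of many of these genes, while the endoplasmic reticulum member Hspa5 (BiP) is induced through a separate ER stress response element. In brain, Hspa8 and Hsp90ab1 are abundant constitutive forms, made without stress.

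The promoter sequences show which of these genes carry those elements. RefSeq promoters of the GRCr8 assembly, from 250 bases before to 50 bases after the start, were matched for all 9 genes and searched for GAANNTTC or TTCNNGAA, each of which reads the same on both strands. Such a core was present in 15.85% of all 33465 promoters, and 3 units in a row were present in 0.8%. Cores were found for Hspb1 (2), Hspb8 (1), Dnaja1 (3), Dnajb1 (2), Hspa8 (4) and Hspd1 (3), where overlapping cores count separately, and none were found for Hspa4, Hsp90ab1 or Hspa5. Dnaja1, Hspa8 and Hspd1 held 3 or more units in a row. Hspa5 held the ER stress response element (CCAAT, 9 bases, CCACG), which 0.066% of all promoters hold. A match is a description of the letters and shows neither binding nor use. The stretches upstream of the start are shown for the members whose age profiles follow, 5′ to 3′ on the gene's strand, with the element in capitals.
Hspb8: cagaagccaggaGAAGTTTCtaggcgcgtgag
Hspb1 (distal): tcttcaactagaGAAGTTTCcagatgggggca
Hspb1 (proximal): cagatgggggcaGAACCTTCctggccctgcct
Dnaja1: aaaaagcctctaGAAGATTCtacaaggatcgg
Dnajb1: tcgggaggggcgGAAGGTTCtgg
Hspa8 (distal): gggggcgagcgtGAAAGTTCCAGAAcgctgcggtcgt
Hspa8 (proximal): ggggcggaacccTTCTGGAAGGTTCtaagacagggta
Hspd1: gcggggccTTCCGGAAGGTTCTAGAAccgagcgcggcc
Hspa5 (ER stress response element): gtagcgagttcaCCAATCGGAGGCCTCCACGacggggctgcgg

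On GRCr8 these stretches lie at chr12:45837273-45837304 (plus strand) for Hspb8, chr12:26432411-26432442 and chr12:26432391-26432422 (minus) for Hspb1, chr5:60638211-60638242 (plus) for Dnaja1 and chr19:41431142-41431164 (minus) for Dnajb1. Those of Hspa8 lie at chr8:50080289-50080325 and chr8:50080447-50080483 (plus), that of Hspd1 at chr9:64084250-64084287 (minus) and that of Hspa5 at chr3:38452961-38453003 (plus). Hspb8 and the distal Hspb1 stretch hold the same 8 letters, ending 16 bases before the start of Hspb8 and 122 bases before that of Hspb1. Dnaja1 and Dnajb1 each held a further element just after the start, which for Dnaja1 was its run of 3 units. The Hspd1 promoter overlaps by 211 bases that of Hspe1, the gene of its co-chaperonin, which is read from the other strand, so both windows hold the same run.

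The pyramidal neuron markers, of which 8 of 10 (Camk2a and Slc17a7 among them) were tested, had summed signals of 24011 to 31025 over all arrays. Those of dentate granule cells, of which 3 of 5 were tested, had summed signals of 1770 to 3025. No other region was measured, so these signals cannot tell CA1 from its neighbours. CA1 is bulk tissue, so fewer cells of a type and less RNA per cell cannot be told apart. Ttr, a choroid plexus gene, had a median signal of 241.9 over the arrays but was between 3908 and 16310 on 5 of them, 4 at 3 months and 1 at 23 months, against at most 1123 on the other arrays. Fits without these 5 arrays, given below, were chosen after seeing the data and lack 4 of the 9 animals of 3 months. The cause of a call lost in them was not tested. Between 3 and 23 months, 9 of 11 tested microglial, 4 of 9 astrocyte and 1 of 7 endothelial markers were called higher. Of all probe sets, 3.12% were called, higher or lower. For a straight-line trend over months (5.05% of all probe sets called), 1 of 8 oligodendrocyte markers was called higher and 0 lower. Pou3f1 fell among 8 pyramidal neuron markers (-0.32 ± 0.084 in log2, SE, limma adjusted p = 0.0156) and Ugt8 among 8 oligodendrocyte markers (-0.28 ± 0.077, adjusted p = 0.0291). Median signals were under 100 for both tested blood markers (Hbb and Slc4a1), for 4 of 6 choroid plexus and 3 of 6 mural cell markers, and for Itgam among the microglial and Pecam1 among the endothelial markers. The summed blood marker signal nevertheless reached 4493 at 23 months (median 124.5), against at most 294.0 at any other age. The part of blood in the chaperone values was not tested. No test of scan batches was made, since scan dates are not used here.

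Of the 12 probe sets, 2 changed between 3 and 23 months: 1 of Hspb8 rose and 1 of Dnaja1 fell (limma, Benjamini-Hochberg adjusted p under 0.05 over all 9541 probe sets, of which 3.12% were called). An unadjusted p under 0.05 was reached by 4 of the 12 and by 14.5% of all probe sets. The same probe sets of Hspb8 and Dnaja1 were the 2 called for a straight-line trend over months, a test that called 5.05% of all probe sets. For the trend, 6 of the 12 had an unadjusted p under 0.05, against 17.3% of all probe sets. The limma F-test over the 5 ages called none of the 12, against 1.77% of all probe sets. In it, 3 of the 12 had an unadjusted p under 0.05, against 9.38% of all probe sets. The 12 were not tested as a set. The median 23 minus 3 month difference was -0.04 over the 12, and -0.0013 over all probe sets tested.

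**Figure D1:**
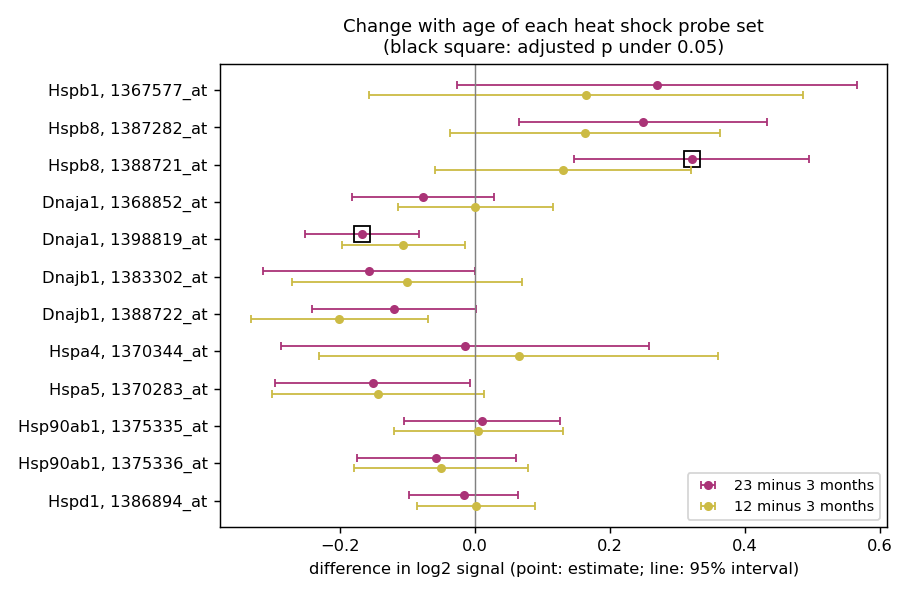
Differences in log2 signal from 3 months for each of the 12 probe sets, at 23 months (purple) and 12 months (yellow), with 95% intervals from limma; black squares mark an adjusted p under 0.05. The small heat shock proteins lie to the right of zero and the J-domain probe sets to the left at 23 months, while only Hspb8 1388721_at (0.32) and Dnaja1 1398819_at (-0.17) carry a square.

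Over shorter spans of age, none of the 12 was called by limma for 23 against 12 months (0.283% of all probe sets called, 1 of the 12 with an unadjusted p under 0.05), for 12 against 3 months (0.199%, and 2 of the 12), for 9 against 3 months (0.0524%, and 0 of the 12) or for 6 against 3 months (0.0105%, and 0 of the 12). Over all probe sets, 8.45%, 7.84%, 3.05% and 2.89% had an unadjusted p under 0.05, in the same order. The comparisons with 3 months share the same 9 control arrays.

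Hspb8 encodes a small heat shock protein that works with Bag3 in removing misfolded proteins. Its probe set 1388721_at ranged from 135.4 to 236.4 at 3 months (median 170.6), from 167.6 to 242.1 at 6 months (median 193.6), from 162.4 to 235.5 at 9 months (median 196.2), from 173.6 to 227.7 at 12 months (median 192.3) and from 185.8 to 300.3 at 23 months (median 216.7). All 13 aged animals lay above the 3-month mean, and 4 of them above the highest 3-month animal, so the groups overlapped. The mean signal was 180.7 ± 32.3 (SD, n = 9) at 3 months and 225.0 ± 36.0 (SD, n = 13) at 23 months. The rise was 0.32 ± 0.087 in log2 (SE, limma adjusted p = 0.0234), a 1.25-fold change with a 95% interval of 1.11 to 1.41. The slope was 0.0142 ± 0.0038 log2 units per month (SE, limma adjusted p = 0.0148), and the F-test did not reach the threshold (adjusted p = 0.252).

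The second Hspb8 probe set, 1387282_at, ran from 103.6 to 136.6 at 3 months (median 120.8), from 115.7 to 152.7 at 6 months (median 120.7), from 114.4 to 143.0 at 9 months (median 125.0), from 95.8 to 182.5 at 12 months (median 133.6) and from 119.7 to 171.4 at 23 months (median 136.8). Again all 13 aged animals lay above the 3-month mean, 7 of them above the highest 3-month animal, and the 12-month group held both the lowest and the highest signal of all 49 arrays. Its difference of 0.25 ± 0.092 (SE) did not pass (limma adjusted p = 0.136, and 0.109 for the trend). The changes of both probe sets were not distinguishable (1387282_at minus 1388721_at, difference of changes -0.07 ± 0.11 in log2, SE; exact two-sided permutation of 13 against 9 arrays, p = 0.547, adjusted over 4 such tests 0.651). Across animals of the same age, however, they did not vary together (Pearson r = -0.007, Spearman rho = -0.006, 49 arrays; permutation p = 0.961 and 0.967, adjusted over 40 relations 0.963 and 0.968).

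The Hspb8 call at 23 against 3 months was lost without any of 4 single arrays: 3 months replicate 1 (0.27, adjusted p = 0.0831), 3 months replicate 2 (0.29, adjusted p = 0.0579), 3 months replicate 6 (0.30, adjusted p = 0.0515) or 23 months replicate 3 (0.29, adjusted p = 0.0509). Without the 5 arrays of highest Ttr signal the difference was 0.44 ± 0.10 (SE, limma adjusted p = 0.00606). Without the 8 arrays of Ttr signal over 3 times the median, a cut planned beforehand, it was 0.44 ± 0.11 (SE, limma adjusted p = 0.0141, and 0.0478 for the trend). The trend was called with each of the 49 arrays left out in turn (limma adjusted p from 0.00604 to 0.0457). The 23 against 3 month call was also lost under quantile normalization (0.30, limma adjusted p = 0.0530), in a limma fit of both ages alone (adjusted p = 0.0928), and by a plain test per probe set (p = 0.117 after Benjamini-Hochberg adjustment). With replicate numbers as a block it was lost too, and so was the trend (limma adjusted p = 0.107 and 0.109).

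Hspb1 (Hsp27), an actin-binding small heat shock protein induced in reactive astrocytes, gave a dim signal that reached 100 on 32 of the 49 arrays. Probe set 1367577_at ran from 56.2 to 127.1 at 3 months (median 111.4), from 77.7 to 168.1 at 6 months (median 101.1), from 73.1 to 144.4 at 9 months (median 99.1), from 78.2 to 172.7 at 12 months (median 117.5) and from 89.0 to 173.8 at 23 months (median 119.6). Of the 13 aged animals, 9 lay above the 3-month mean and 5 above the highest 3-month animal. The 23 minus 3 month difference was 0.27 ± 0.15 (SE, limma adjusted p = 0.403), with a 95% interval of -0.03 to 0.57. Without 3 months replicate 9, its lowest animal, the difference was 0.16 (adjusted p = 0.689), and without the 5 arrays of highest Ttr signal it was 0.47 (adjusted p = 0.240). The spread between animals of one age was 0.34 log2 units, above that of 89.6% of the probe sets tested.

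**Figure D2:**
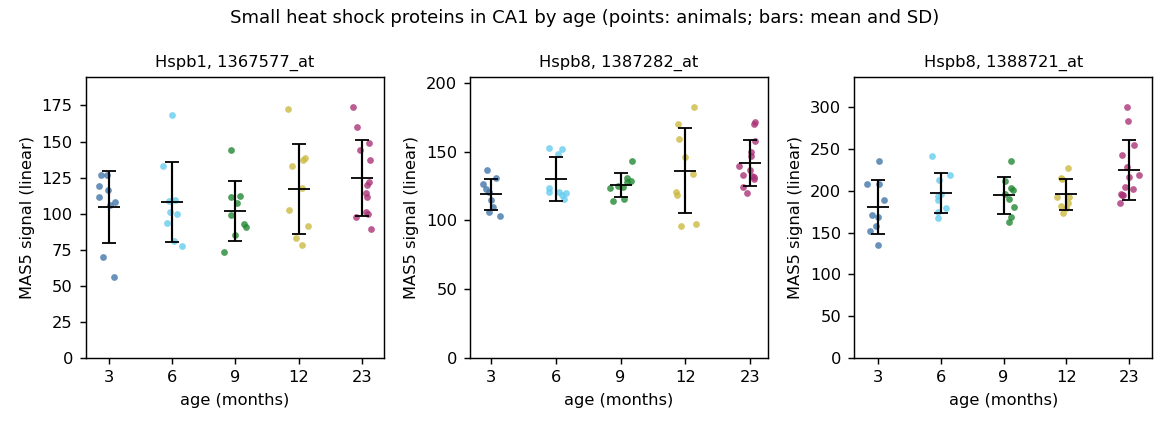
MAS5 signal (linear scale from 0) of Hspb1 and of both Hspb8 probe sets by age in months; points are single animals, bars the mean and SD (9 animals per age, 13 at 23 months). At 23 months all 13 points of either Hspb8 probe set lie above the 3-month mean, with overlap between the ages.

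The list of small heat shock proteins held 9 genes, of which 5 were tested, and 2 of these rose with age, Hspb8 and Cryab, where 3.12% of all probe sets were called for 23 against 3 months and 5.05% for the trend. Cryab (alpha B-crystallin), abundant in oligodendrocytes and astrocytes, ran from 1000 to 1518 at 3 months (median 1106) and from 1201 to 2119 at 23 months (median 1342), with overlap. The rise was 0.30 ± 0.089 (SE, limma adjusted p = 0.0428, trend adjusted p = 0.0180). Without the 5 arrays of highest Ttr signal it was 0.31 with an adjusted p of 0.180, and the call was lost in 11 of the 49 fits that left out 1 array (adjusted p from 0.0141 to 0.104). Of the 5 genes, 3 had a positive difference and the lowest difference was -0.12. The median was 0.27, against -0.0013 over all probe sets tested. Beside this, the summed signal of 9 astrocyte markers had a range of 45432 to 53594 (median 48565) at 3 months and of 48250 to 60741 (median 55514) at 23 months. That of 11 microglial markers ran from 4226 to 4684 and from 5384 to 10257 at those ages, with no overlap. The part of these markers in the small heat shock protein values was not tested.

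Dnaja1 (Hsp40 family) is a farnesylated J-domain protein that hands clients to Hspa8 in the cytosol. Its probe set 1398819_at ranged from 2779 to 3452 at 3 months (median 3123), from 2641 to 3235 at 6 months (median 3012), from 2808 to 3290 at 9 months (median 3026), from 2390 to 3154 at 12 months (median 2979) and from 2579 to 3008 at 23 months (median 2700). All 13 aged animals lay below the 3-month mean and 8 of them below the lowest 3-month animal, with some overlap left. Mean signal was 3090 ± 215 (SD, n = 9) at 3 months and 2750 ± 132 (SD, n = 13) at 23 months. The difference was -0.17 ± 0.042 in log2 (SE, limma adjusted p = 0.0115), or 0.891 of the 3-month level with a 95% interval of 0.841 to 0.944. The slope was -0.00804 ± 0.0018 log2 units per month (SE, limma adjusted p = 0.00306), while the F-test missed the threshold (adjusted p = 0.0668).

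The spread of Dnaja1 1398819_at within an age was 0.092 log2 units, at percentile 3.0 of the probe sets tested. Its difference was called in all 49 fits that left out 1 array (adjusted p from 0.00452 to 0.0419). Without the 5 arrays of highest Ttr signal the difference was -0.16 ± 0.051 (SE) and no longer passed (limma adjusted p = 0.0905), whereas the trend still did (adjusted p = 0.0153). The mean log2 ratio of 3′ to 5′ Actb control probe sets, a sign of RNA integrity, was 0.815 at 3 months and 0.925 at 23 months. Within ages, over 49 arrays, Dnaja1 1398819_at had an r of -0.328 with the Actb ratio and of -0.252 with that of Gapdh, and 1368852_at had -0.404 and 0.163, given as a description, since both values of a point come from the same array. The part of RNA integrity in the age difference was not tested.

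The other Dnaja1 probe set, 1368852_at, was designed from the same source sequence. It ran from 2549 to 3034 at 3 months (median 2763), from 2602 to 3014 at 6 months (median 2772), from 2295 to 3104 at 9 months (median 2883), from 2487 to 3014 at 12 months (median 2789) and from 2257 to 3354 at 23 months (median 2593). The aged group held both its lowest and its highest signal, with 10 of 13 animals below the 3-month mean and 6 below the lowest 3-month animal. Its difference of -0.08 ± 0.053 (SE) did not pass (limma adjusted p = 0.546). The changes of both probe sets were not distinguishable (1368852_at minus 1398819_at, 0.09 ± 0.056 in log2, SE; exact two-sided permutation p = 0.145, adjusted 0.580). Within ages they correlated at r = 0.259 (rho = 0.284, 49 arrays; permutation p = 0.0578 and 0.0521, adjusted 0.241 and 0.227).

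Dnajb1 (Hdj1), the stress-inducible J-domain protein that with Hsp70 and Hsp110 takes apart aggregates, had both probe sets lower in aged animals without passing the test. Probe set 1388722_at ran from 784.4 to 1010 at 3 months (median 880.5), from 657.7 to 942.0 at 6 months (median 866.4), from 721.3 to 870.8 at 9 months (median 835.0), from 615.0 to 916.7 at 12 months (median 756.5) and from 704.5 to 898.5 at 23 months (median 779.6). The lowest median was therefore at 12 months, where 6 of 9 animals lay below the lowest 3-month animal, against 7 of 13 at 23 months. The 12 minus 3 month difference was -0.20 ± 0.066 (SE, unadjusted p = 0.00356, limma adjusted p = 0.297) and the 23 minus 3 month difference -0.12 ± 0.060 (SE, limma adjusted p = 0.351). Probe set 1383302_at had medians of 543.3 at 3 months, 524.4 at 6, 513.0 at 9, 523.5 at 12 and 467.9 at 23 months, and a 23 minus 3 month difference of -0.16 ± 0.078 (SE, limma adjusted p = 0.346). Both Dnajb1 probe sets varied together within ages (r = 0.518, rho = 0.530, 49 arrays; permutation p = 0.00036 and 0.00029, adjusted over 40 relations 0.0072 and 0.0113). The correlation was 0.533 without the 2 most extreme arrays.

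**Figure D3:**
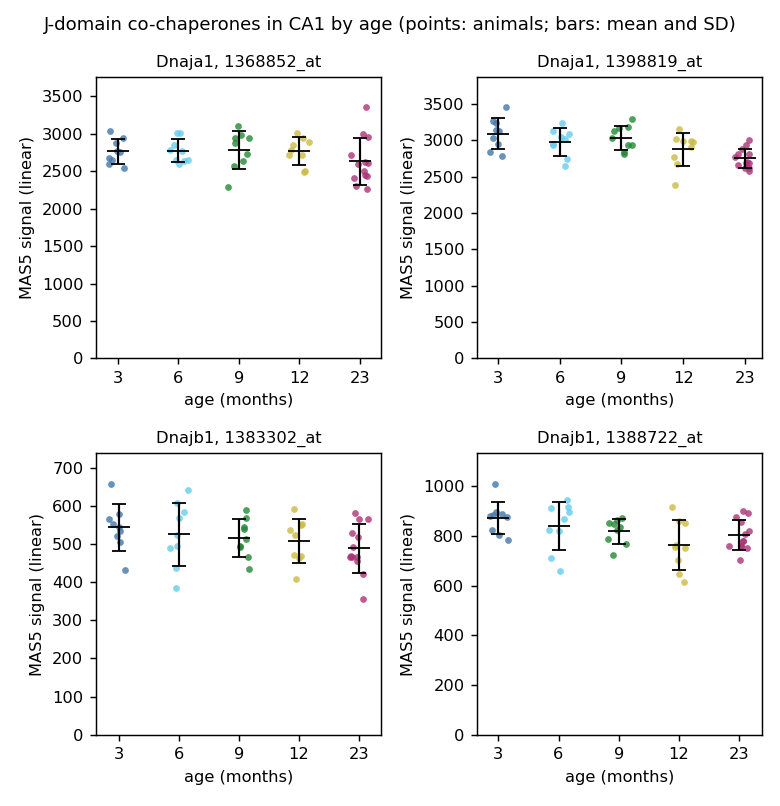
MAS5 signal (linear scale from 0) of both probe sets of Dnaja1 and of Dnajb1 by age in months; points are single animals, bars the mean and SD (9 animals per age, 13 at 23 months). For Dnaja1 1398819_at all 13 aged animals lie below the 3-month mean of 3090, and Dnajb1 1388722_at has its lowest median, 756.5, at 12 months.

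Among 42 genes of J-domain proteins, 31 were tested, and Dnaja1 was the one called between 3 and 23 months (3.12% of all probe sets called) or for the trend (5.05%), a count near the share over the array. Of the 31, 7 had a positive difference, and the median was -0.05 against -0.0013 over all probe sets tested.

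Of the Hsp70-class genes, Hspa5, the BiP chaperone of the endoplasmic reticulum that holds stress sensors inactive, ran from 2392 to 3312 at 3 months (median 2705), from 2262 to 3322 at 6 months (median 2629), from 2178 to 3362 at 9 months (median 2661), from 2130 to 2818 at 12 months (median 2578) and from 1859 to 3038 at 23 months (median 2517). Of the 13 aged animals 11 lay below the 3-month mean and 5 below the lowest 3-month animal. The difference was -0.15 ± 0.072 (SE, limma adjusted p = 0.306) and the 95% interval was -0.30 to -0.01 before adjustment over probe sets. The 12-month animals had nearly the same difference from 3 months, -0.14 ± 0.078 (SE, limma adjusted p = 0.688).

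Hspa4 (Apg2), an Hsp110 protein that exchanges the nucleotide of Hsp70, ran from 661.7 to 1193 at 3 months (median 987.6), from 589.3 to 1170 at 6 months (median 947.8), from 474.0 to 1271 at 9 months (median 1026), from 789.0 to 1187 at 12 months (median 962.7) and from 535.4 to 1237 at 23 months (median 1055). Its spread within ages, 0.34 log2 units, exceeded that of 88.7% of probe sets. The 23 minus 3 month difference was -0.01 ± 0.14 (SE, limma adjusted p = 0.982). Its 95% interval of -0.29 to 0.26 is wide, and changes within it are not excluded.

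Hspa8 (Hsc70), the constitutive cytosolic Hsp70 that also uncoats clathrin vesicles at synapses, was read through the probe set it shares in annotation with Haus8l2. Signals ran from 11208 to 13164 at 3 months (median 11960), from 10889 to 13219 at 6 months (median 11391), from 11051 to 13259 at 9 months (median 12283), from 11038 to 13373 at 12 months (median 12074) and from 10124 to 12614 at 23 months (median 12074). The ages overlapped almost fully, and the spread within ages, 0.087 log2 units, was among the smallest on the array. In a limma fit of all 11375 probe sets other than controls that passed the filter, the 23 minus 3 month difference was -0.03 ± 0.039 (SE, adjusted p = 0.810; trend adjusted p = 0.798, F-test 0.935).

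Hsp90ab1 (Hsp90 beta), the constitutive Hsp90 that matures kinases and steroid receptors, has probe sets 1375335_at and 1375336_at designed from a single source sequence. The first had medians of 3371, 3594, 3429, 3552 and 3681 at 3, 6, 9, 12 and 23 months within a range of 2989 to 4716. The second had medians of 6325, 6449, 6064, 6256 and 6089 at those ages within a range of 5193 to 8327. Neither differed between 3 and 23 months beyond the spread between animals: 0.01 ± 0.058 (SE, limma adjusted p = 0.966; 95% interval -0.10 to 0.13) and -0.06 ± 0.059 (SE, limma adjusted p = 0.732; 95% interval -0.17 to 0.06). They did not vary together within ages (r = -0.007, rho = 0.044, 49 arrays; permutation p = 0.963 and 0.774, adjusted 0.963 and 0.815).

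Hspd1 (Hsp60) forms the folding chamber of the mitochondrial matrix. Its signals ran from 3429 to 3844 at 3 months (median 3734), from 3257 to 3953 at 6 months (median 3619), from 3438 to 3937 at 9 months (median 3628), from 3316 to 4230 at 12 months (median 3591) and from 3351 to 4053 at 23 months (median 3528). The ages overlapped throughout. The difference was -0.02 ± 0.040 (SE, limma adjusted p = 0.910), and its 95% interval of -0.10 to 0.06 bounds a change to between 0.935-fold and 1.05-fold.

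**Figure D4:**
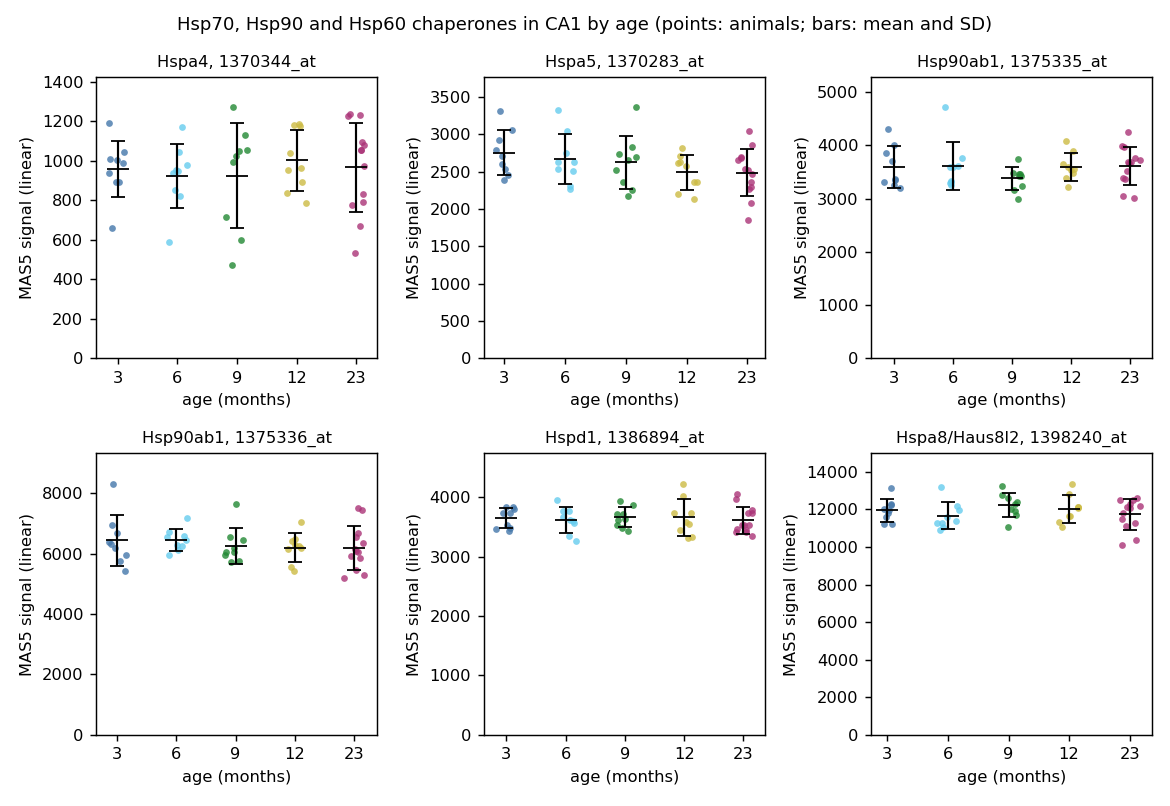
MAS5 signal (linear scale from 0) of Hspa4, Hspa5, both Hsp90ab1 probe sets, Hspd1 and the probe set shared by Hspa8 and Haus8l2 by age in months; points are single animals, bars the mean and SD (9 animals per age, 13 at 23 months). The ages overlap in every panel, with wide scatter for Hspa4 (474.0 to 1271) and narrow scatter for Hspd1 (3257 to 4230).

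Of 9 tested Hsp70 and Hsp110 genes, 10 exchange factors and regulators, 15 chaperonin subunits and prefoldins, 27 endoplasmic reticulum chaperones and stress genes and 4 heat shock factors and their binding protein, limma called 0 between 3 and 23 months, while 1, 3, 2, 6 and 1 of them had an unadjusted p under 0.05. Over all probe sets tested, 3.12% were called and 14.5% had an unadjusted p under 0.05. Their median differences were -0.03, -0.04, -0.03, -0.05 and 0.12. The examples with the smallest F-test p were Hspa12a (-0.14 ± 0.070) and Hspa5, the exchange factors Bag2 (-0.21 ± 0.079) and Bag5 (-0.22 ± 0.087), Pfdn4 (-0.13 ± 0.048) and Tcp1 (-0.06 ± 0.036), the oxidoreductase Pdia4 (-0.23 ± 0.077) and the co-chaperone Dnajb11 (-0.13 ± 0.055), and Hsf1 (0.19 ± 0.089) and Hsbp1 (-0.01 ± 0.047), each with its SE. The lowest adjusted p among these was 0.0976, for Pdia4.

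Among 16 tested genes of Hsp90 and its co-chaperones, whose median difference was -0.05, Chordc1 fell between 3 and 23 months, and Chordc1 and Fkbp4 fell along the trend. Of all probe sets, 3.12% were called for 23 against 3 months and 5.05% for the trend. Chordc1, an Hsp90-binding protein with CHORD domains, ran from 508.8 to 742.2 at 3 months (median 557.8) and from 453.6 to 602.3 at 23 months (median 476.9), a difference of -0.23 ± 0.069 (SE, limma adjusted p = 0.0451; trend adjusted p = 0.0223). Fkbp4 (FKBP52), an immunophilin of steroid receptor complexes, ran from 741.8 to 964.6 at 3 months (median 791.7) and from 621.7 to 831.1 at 23 months (median 731.3). Its difference of -0.17 ± 0.059 did not pass (limma adjusted p = 0.115), while its slope of -0.00889 ± 0.0026 per month did (adjusted p = 0.0295). Neither trend passed without the 5 arrays of highest Ttr signal (adjusted p = 0.0807 and 0.108), nor did the 23 minus 3 month difference of Chordc1 (-0.23, adjusted p = 0.218). That difference also lost its call in 15 of the 49 fits without a single array (adjusted p from 0.0218 to 0.131).

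How the genes varied together was read between animals of the same age, from the brightest probe set of each gene after subtracting each age's mean, over 49 arrays. Of 36 pairs, 19 had a positive r, the median was 0.020, and 4 had an adjusted permutation p under 0.05 over 40 relations (36 pairs of genes and 4 pairs of probe sets, arrays permuted within ages). Most pairs thus showed no shared variation that passed the test. The 2 probe sets of 1 gene had an r of -0.007 for Hspb8 and for Hsp90ab1, 0.259 for Dnaja1 and 0.518 for Dnajb1. A low r between 2 genes can therefore not be read as a lack of shared variation. All points share an array, so array quality and tissue dissection enter every pair.

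Hspa5 varied with Hspb1 (r = 0.462, rho = 0.474, permutation p = 0.00086 and 0.00085, adjusted 0.0086 and 0.0113, and r = 0.423 without the 2 most extreme arrays). The r of this pair was negative at 1 age, ranging from -0.135 at 9 months to 0.796 at 23 months. Hspa5 also varied with Dnaja1 (r = 0.415, rho = 0.401, permutation p = 0.00295 and 0.00639, adjusted 0.0236 and 0.0511, and 0.361 without the 2 most extreme arrays), with a positive r in 5 of 5 ages, from 0.235 to 0.623. The probe set of Hspa8 and Haus8l2 varied with Hsp90ab1 1375336_at (r = 0.486, rho = 0.484, permutation p = 0.00081 and 0.00071, adjusted 0.0086 and 0.0113, and 0.447 without 2 arrays), with r from -0.138 at 6 months to 0.699 at 3 months. Hspa4 ran opposite to Hsp90ab1 1375336_at (r = -0.526, rho = -0.464, permutation p = 0.00022 and 0.00143, adjusted 0.0072 and 0.0143, and -0.559 without 2 arrays), with r from -0.816 at 3 months to 0.045 at 12 months. Both Hsp90ab1 relations rest on this 1 probe set. The other, 1375335_at, did not vary with it (r = -0.007), and its relations with Hspa4 and Hspa8/Haus8l2 were not computed. The r of Hspb8 with the other genes lay between -0.161 (Hspa8/Haus8l2) and 0.123 (Dnajb1), with no adjusted permutation p under 0.05. As a description, Hsp90ab1 1375336_at and Hspa4 had r of 0.490 and -0.297 with the mean of the astrocyte markers, and 0.509 and -0.194 with oligodendrocyte markers. With pyramidal neuron markers they had 0.075 and 0.247. Hspb1 and Hspa5 had 0.462 and 0.310 with endothelial, 0.408 and 0.325 with mural cell, and 0.196 and -0.02 with astrocyte markers. The part of tissue content in these pairs was not tested.

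**Figure D5:**
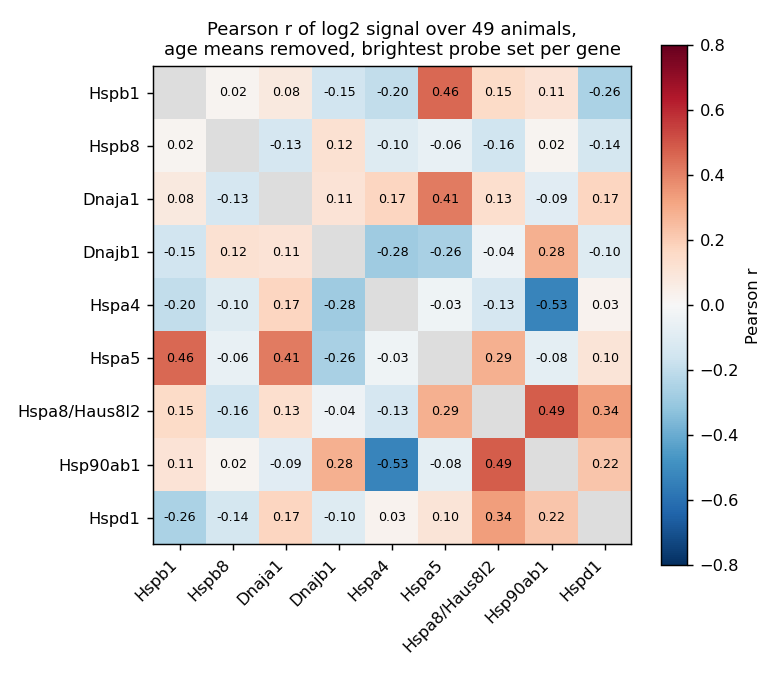
Pearson r of log2 signal between the brightest probe sets of the 9 genes over 49 animals after removal of age means (colour scale from -0.8, blue, to 0.8, red). Hspa5 with Hspb1 (0.462) and with Dnaja1 (0.415), Hspa8/Haus8l2 with Hsp90ab1 (0.486) and Hspa4 with Hsp90ab1 (-0.526) stand out, and the row of Hspb8 stays pale.

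The probe sets of other genes whose within-age pattern was most like each member's were chosen as those of highest r among about 9540, so their r is a description with no test. For Hspb8 these were Mrpl51 (0.60), Slc12a2 (0.582) and Strn (0.575), and for Hspb1 they were Srrm2 (0.577), Gng11 (0.542) and Trip10 (0.526). For Dnaja1 these were Bloc1s2 (0.611), Chchd2l3 (0.607) and Eapp (0.594), and for Dnajb1 they were Zfp637 (0.624), Lxn (0.616) and Ep300 (0.582). Hspa5 was nearest to Arhgap39 (0.677), Zfp385b (0.634) and Pdia6 (0.620), the last a disulfide isomerase of the endoplasmic reticulum. Hspa4 was nearest to Syt11 (0.733), Nsg2 (0.699) and Vdac1 (0.679). The shared Hspa8 probe set was nearest to Tmsb4x (0.636), Myo1c (0.595) and Pea15 (0.578). Hsp90ab1 was nearest to COX2 (0.787), the mitochondrial cytochrome oxidase subunit, Mpnd (0.708) and Rps29 (0.706). Hspd1 was nearest to Scn4b (0.653), Siae (0.646) and Cct3 (0.634), the last a subunit of the cytosolic chaperonin. Hsp90ab1 had 38 probe sets with an r above 0.6 and Hspa4 had 13, while Hspb1 had 0 and Hspb8 1.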

How the data were processed

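The authors deposited linear microarray intensities. They computed them with MAS5, per the submitters' processing notes, and scaled each array to a common target, per the series' design text. The MAS5 version is not given in the sources used here. Signals under 16 were set to 16 (0.0539% of tested values) and log2 values were taken with no further scaling. Gene symbols came from the platform annotation, updated through RefSeq's GRCr8 gene table (12754 of 12783 probe sets with 1 symbol matched). Of 15923 probe sets, 57 were controls, 312 had several symbols and 2771 none listed. A probe set with 1 symbol was tested where its signal reached 100 on 5 or more arrays, in place of the authors' filter on presence calls, not used here. This left 9541 (8094 genes).

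Tests used R 4.3.3 and limma 3.58.1 (lmFit, eBayes with a variance trend) in 1 fit of 49 arrays with a mean per age, and a second with age in months as a number. P-values were adjusted by Benjamini-Hochberg over all probe sets tested and called under 0.05; each animal gave 1 array, so they reflect variation among animals, with precision limited by the number of arrays. The procedure was tested on simulated data. No 2 of 1176 array pairs were alike (SD of log2 differences at least 0.252). Replicate numbers from the titles were not taken to pair the arrays in the main fit, since the labels name no shared litter or day. A block on these numbers was fitted as an alternative. A correlation of 2 members and a difference between probe sets of 1 gene were tested by permutation (100000 resamples within ages, and exact, respectively); both tests were added after the values were seen.

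The members and gene lists were chosen with earlier results of these data known. Named genes were all probe sets of the members, genes of each chaperone list called in the F-test, the trend or 23 against 3 months (otherwise the 2 of smallest F-test p), and the 3 probe sets most like each member. A gene counted once in a list, by its brightest tested probe set; 31 list genes were not tested. Alternatives changed the floor, pseudocount, filter, normalization, variance model, array weights, replicate block, test, samples fitted and arrays kept. Behaviour scores are not analysed here.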

Additional observations from a re-analysis of the deposited data

Results flagged for a closer look

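In each of 52 groups (13 probe sets with 4 ages of 9 animals) the highest and lowest animal was compared with its nearest neighbour, relative to the range of the group. In 3 groups 1 animal stood apart, and chance alone flags about 1 in 20 groups. For Dnajb1 1388722_at, 3 months replicate 2 had a signal of 1009.6, against 894.8 for the next highest animal of that age. For Hsp90ab1 1375335_at, 6 months replicate 9 had 4715.6, against 3771.1. For Hsp90ab1 1375336_at, 9 months replicate 1 had 7653.4, against 6564.0. None of these probe sets was called for 23 against 3 months, 23 against 12 months or the trend in any of the 49 fits that left out 1 array.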

How the results depend on the processing

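The count of 2 called probe sets at 23 against 3 months became 1 under quantile normalization, with the replicate block, in a fit of both ages alone, by a plain test per probe set with Benjamini-Hochberg adjustment, with a filter of 200 on at least 25 arrays, without the 8 arrays of Ttr signal over 3 times the median, and without the 5 of highest Ttr signal, the last chosen after seeing the data. It was 4 by the plain test at an unadjusted p of at most 0.05, the threshold the design text names. That setting also gave 3 for the F-test, 6 for the trend, 1 for 23 against 12 months and 1 for 12 against 3 months. Over all probe sets, limma gave an unadjusted p under 0.05 for 14.5%, 9.38%, 17.3%, 8.45% and 7.84%, in the same order. The F-test count of 0 became 1 with array weights, median centring and the plain test with Benjamini-Hochberg adjustment. The trend count of 2 became 1 with the replicate block and under the stricter filter, which left 9 of the 12 probe sets. With 1 array left out in turn, the count ranged from 1 to 2 for 23 against 3 months and from 0 to 1 for the F-test. Hspb8 1388721_at had an adjusted p of 0.0530 under quantile normalization, 0.107 with the replicate block (0.30, and 0.109 for its trend), 0.117 by the plain test and 0.0928 in the fit of both ages alone; Dnaja1 1398819_at had 0.0951 without the 8 arrays of high Ttr signal. No difference of a called probe set changed sign. Fewer arrays or probe sets entered some of these fits, and the cause of a changed count was not tested. Same-numbered arrays of different ages correlated at a mean r of 0.068 over 86 pairs (others -0.007 over 868 pairs), and 17 of 49 arrays correlated best with their own number, a hint from the data of shared structure. Single same-numbered pairs ranged from -0.129 to 0.362. The labels name no shared litter or day, so the replicate block was kept as an alternative. The signal of Hspb1 was under 100 on some arrays of every age.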

Other observations

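Genes outside the 9 that were chosen after their values were seen gave the following. Hspe1, which shares its promoter region with Hspd1, differed by -0.02 ± 0.038 (SE) in log2 between 3 and 23 months (limma adjusted p = 0.900). Hspa1a, the classical heat-inducible Hsp70, differed by -0.02 ± 0.11 (SE, limma adjusted p = 0.974). Hsph1, an Hsp110 protein, differed by -0.04 ± 0.040 (SE, limma adjusted p = 0.761). Bag3, the co-chaperone that works with Hspb8, differed by 0.03 ± 0.068 (SE, limma adjusted p = 0.907). None of these passed the threshold.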
